A study of Mus musculus with 203 samples.

Results

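The AP-1 transcription factor genes *Fos*, *Fosb*, *Fosl1*, *Fosl2*, *Jun*, *Junb*, *Jund*, *Batf*, *Batf3* and *Atf3* were followed by their gene symbols in RNA-seq of RAW264.7 cells (RAW cells), a macrophage-like line derived from BALB/c mice. All 10 were among the 25094 genes listed, and 9 of them passed the filter on low values, with 12905 genes tested in all. *Batf* was listed at 0 in all 16 libraries and was not tested. Cells stably carried a lentiviral PLKO.1 hairpin against GFP (shGFP, the control) or against *Kdm1a* (shKDM1A, a single hairpin), which encodes the lysine demethylase KDM1A (LSD1), and were left without IL4 or given 20 ng/ml of IL4 for 6 h. Each of the 4 groups had 4 libraries. All cells therefore carried an integrated vector and had been through selection. The comparison asks how AP-1 gene expression differs when KDM1A is depleted, before and during alternative activation by IL4. The AP-1 genes under *Gps2* knockout in bone marrow-derived macrophages (BMDMs) were not analysed here, so directions under the 2 depletions were not compared.

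AP-1 is a family of dimers held together by a leucine zipper. FOS proteins do not form stable dimers with each other and bind DNA with a JUN partner, whereas JUN proteins also pair among themselves, and ATF3 and the BATF proteins join JUN partners as well. The genes of *Fos*, *Jun*, *Junb* and *Atf3* are classic immediate early genes that respond within minutes to growth factors and stress, and in macrophages AP-1 sites lie beside PU.1 sites at many enhancers.

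The promoters of 9 of the 10 genes were found among RefSeq windows of 300 bases on GRCm38.p6, from 250 bases before to 50 bases after the start of the gene. *Fosl1* had no entry. Windows were searched on both strands. The letters of a TRE-like site, which AP-1 dimers prefer, were TGANTCA. The letters of a CRE-like site, which JUN-ATF dimers prefer, were TGANNTCA. A STAT6-type site was TTCNNNNGAA. The PU.1 core, the TATA box and the CArG box, which serum response factor binds, were searched as well. Capitals mark every match, and no 2 matches overlapped in these windows. The first 280 bases, to 30 bases after the start, of *Fos* (chr12:85473640-85473919, plus strand), *Fosl2* (chr5:32136222-32136501, plus strand), *Jun* (chr4:95052193-95052472, minus strand) and *Junb* (chr8:84978719-84978998, minus strand) are shown because these genes carry the different responses described below.
Fos: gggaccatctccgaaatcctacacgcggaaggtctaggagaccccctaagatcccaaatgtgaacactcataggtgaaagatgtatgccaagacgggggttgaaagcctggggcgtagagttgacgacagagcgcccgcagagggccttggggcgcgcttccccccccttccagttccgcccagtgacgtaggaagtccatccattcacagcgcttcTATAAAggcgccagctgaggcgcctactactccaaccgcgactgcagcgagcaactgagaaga
Fosl2: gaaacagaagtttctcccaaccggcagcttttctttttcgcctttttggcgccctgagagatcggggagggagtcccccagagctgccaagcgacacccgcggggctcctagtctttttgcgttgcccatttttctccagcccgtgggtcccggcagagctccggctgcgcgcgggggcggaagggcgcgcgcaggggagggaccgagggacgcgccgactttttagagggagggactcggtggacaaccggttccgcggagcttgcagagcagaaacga
Jun: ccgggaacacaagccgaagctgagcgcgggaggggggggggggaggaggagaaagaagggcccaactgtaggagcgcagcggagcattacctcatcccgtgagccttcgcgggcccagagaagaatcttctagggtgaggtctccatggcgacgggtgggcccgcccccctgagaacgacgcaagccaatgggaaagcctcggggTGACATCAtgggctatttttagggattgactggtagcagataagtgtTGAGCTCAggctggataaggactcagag
Junb: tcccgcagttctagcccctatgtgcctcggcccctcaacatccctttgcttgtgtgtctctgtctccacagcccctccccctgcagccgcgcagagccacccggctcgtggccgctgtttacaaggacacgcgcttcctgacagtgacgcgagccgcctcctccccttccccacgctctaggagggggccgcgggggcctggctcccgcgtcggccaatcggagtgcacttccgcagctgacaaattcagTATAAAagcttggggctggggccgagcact
Counting from 1 at the first transcribed base, the TATA box (TATAAA) of *Fos* lay at -33 to -28 and the match in *Junb* at 1 to 6. *Jun* held CRE-like letters at -45 to -38 and at 3 to 10, and *Jund* at -61 to -54. *Batf3* and *Atf3* each held a PU.1 core (GAGGAA), at -153 to -148 and -149 to -144. Among all 32851 windows, 13.6% held the TATA box, 14.1% the CRE-like site, 28.3% the PU.1 core, 7.81% the TRE-like site, 6.95% the STAT6-type site and 1.63% the CArG box. The last 3 had no match in the 9 windows, and the windows of *Fosl2*, *Fosb* and *Batf* had no match to any motif.

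Values are on a log2 scale and appear moderated for weak genes, so that differences of weak genes may be understated. Library totals ranged from 17554721 to 27782568 tags, and no library duplicated another. *Kdm1a* itself averaged 11.18 ± 0.04 (SD, n = 4) in shGFP cells and 10.30 ± 0.05 in shKDM1A cells without IL4. It fell by 45.8% without IL4 and fell by 42.0% with IL4. Of 10 macrophage markers in the table, 9 passed the filter, with *Csf1r* and *Lyz2* at 14.98 and 16.90 in shGFP cells without IL4, and *Mertk* did not. In shKDM1A cells 5 of the 9 rose and 3 fell without IL4, and 6 rose and 3 fell with IL4, against 19.7% and 18.4% of all genes without IL4 and 20.9% and 19.8% with IL4. Without IL4 *Itgam* rose by 0.41 and *Lyz2* by 0.26, while *Fcgr1* fell by 0.45 and *Adgre1* fell by 0.105. With IL4 *Lyz2* rose by 0.68 and *Itgam* by 0.25, while *Mrc1* fell by 0.83, *Adgre1* fell by 0.44 and *Fcgr1* fell by 0.18. Of 21 markers of other cell types, 11 were at 0 in every library and 3 passed the filter, with group means of at most 2.49. The summed macrophage markers ranged from 17.63 to 17.68 (log2) in shGFP libraries and 17.83 to 17.86 in shKDM1A libraries without IL4, and from 17.31 to 17.33 and 17.74 to 17.835 with IL4. The sums are of linear values, so *Lyz2*, the highest of these markers, weighs most in them. The part of the markers in the results was not tested. The shKDM1A libraries with IL4 fell into 2 pairs. The median absolute difference over genes was 0.0441 between replicates 1 and 3 and 0.0392 between replicates 2 and 4, but 0.0536 to 0.0561 across the pairs, against 0.0358 to 0.0488 between replicates of the other 3 groups. Deviations from the group means were partly shared with other groups: replicate 4 of shGFP without IL4 correlated at 0.283 and 0.357 over genes with replicates 1 and 3 of shKDM1A with IL4 and at -0.334 and -0.343 with its replicates 2 and 4, and replicates 2 and 3 of shGFP without IL4 correlated the other way, at -0.249 to -0.210 and at 0.227 to 0.260. The cause of the split was not tested. Results that rest on these libraries were therefore also fitted with either pair alone, and values that changed their call are given beside them. In such bulk libraries, fewer cells of a type and less RNA per cell cannot be told apart.

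Per transcript length, *Junb* was the most strongly expressed AP-1 gene in every group. In shGFP cells without IL4 its level was 10.88 (log2 value less log2 of length in kb), above 92.8% of genes tested. *Jund* followed at 9.78, *Jun* at 9.33, *Atf3* at 9.09, *Fos* at 8.71, *Fosl2* at 7.76 and *Fosl1* at 7.11, and *Batf3* (2.25) and *Fosb* (1.37) were near the bottom of the range. No neighbours in this order had overlapping libraries. *Fos* moved from the fifth place to the third in shKDM1A cells, with and without IL4, above *Jun* and *Atf3*, and *Atf3* and *Jun* overlapped in shKDM1A cells with IL4 at 9.20 each.

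Among the 9 AP-1 genes tested, the 3 largest differences between shKDM1A and shGFP cells without IL4 were in FOS genes. *Fos*, *Fosl1* and *Fosl2* were each up-regulated in shKDM1A cells without IL4, by 1.69-, 1.98- and 1.79-fold, and *Fos* and *Fosl1* by 1.71- and 1.85-fold with IL4. *Fos* encodes the founding, strongly transactivating member. *Fos* was at 9.79, 9.85, 9.73 and 9.77 in the shGFP libraries without IL4, at 10.17, 10.12, 10.08 and 10.13 in those with IL4, at 10.52, 10.54, 10.53 and 10.59 in the shKDM1A libraries without IL4 and at 10.92, 10.87, 10.92 and 10.88 in those with IL4. The 4 groups did not overlap, and they stood in the order given. The log2 difference of shKDM1A from shGFP cells was 0.76 ± 0.03 (SE, limma, adjusted p = 1.67e-12) without IL4 and 0.77 ± 0.03 with IL4 (limma, adjusted p = 1.42e-12).

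*Fosl1* encodes FRA-1, which lacks the C-terminal transactivation domain of FOS. *Fosl1* was at 7.92, 7.85, 7.90 and 7.84 in the shGFP libraries without IL4, at 7.88, 7.79, 7.79 and 7.86 in those with IL4, at 8.84, 8.81, 8.92 and 8.86 in the shKDM1A libraries without IL4 and at 8.73, 8.66, 8.78 and 8.69 in those with IL4. All shKDM1A libraries were above all shGFP libraries. The difference was 0.98 ± 0.03 (SE) without IL4 (limma, adjusted p = 7.57e-13) and 0.89 ± 0.03 with IL4 (limma, adjusted p = 2.41e-12). *Fosl1* (chr19:5447698-5455938, mm9) overlaps *Ccdc85b* on the opposite strand, and 68.1% of its annotated exon bases are shared with exons of that gene. Because counting used both strands, reads from the 2 genes cannot be told apart there. *Ccdc85b* was itself higher in shKDM1A cells, by 0.43 ± 0.03 without IL4 and 0.45 ± 0.03 with IL4 (limma, adjusted p = 2.30e-08 and 1.23e-08).

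*Fosl2* encodes FRA-2, the other FOS protein without that domain. *Fosl2* was at 10.30, 10.37, 10.34 and 10.24 in the shGFP libraries without IL4, at 10.42, 10.41, 10.41 and 10.41 in those with IL4, at 11.16, 11.09, 11.20 and 11.17 in the shKDM1A libraries without IL4 and at 10.66, 10.75, 10.63 and 10.76 in those with IL4. The shKDM1A libraries without IL4 were the highest, those with IL4 lay between, and both shGFP groups were lowest. The difference was 0.84 ± 0.03 (SE) without IL4 (limma, adjusted p = 8.48e-12) and 0.29 ± 0.03 with IL4 (limma, adjusted p = 3.67e-06).

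*Fosb* was weak, between 3.27 and 3.39 in all libraries. Its difference was 0.05 (95% confidence interval 0.0032 to 0.0896) without IL4 and 0.04 (-0.0068 to 0.0796) with IL4, and neither passed the test over all genes (limma, adjusted p = 0.0859 and 0.171).

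**Figure D1:**
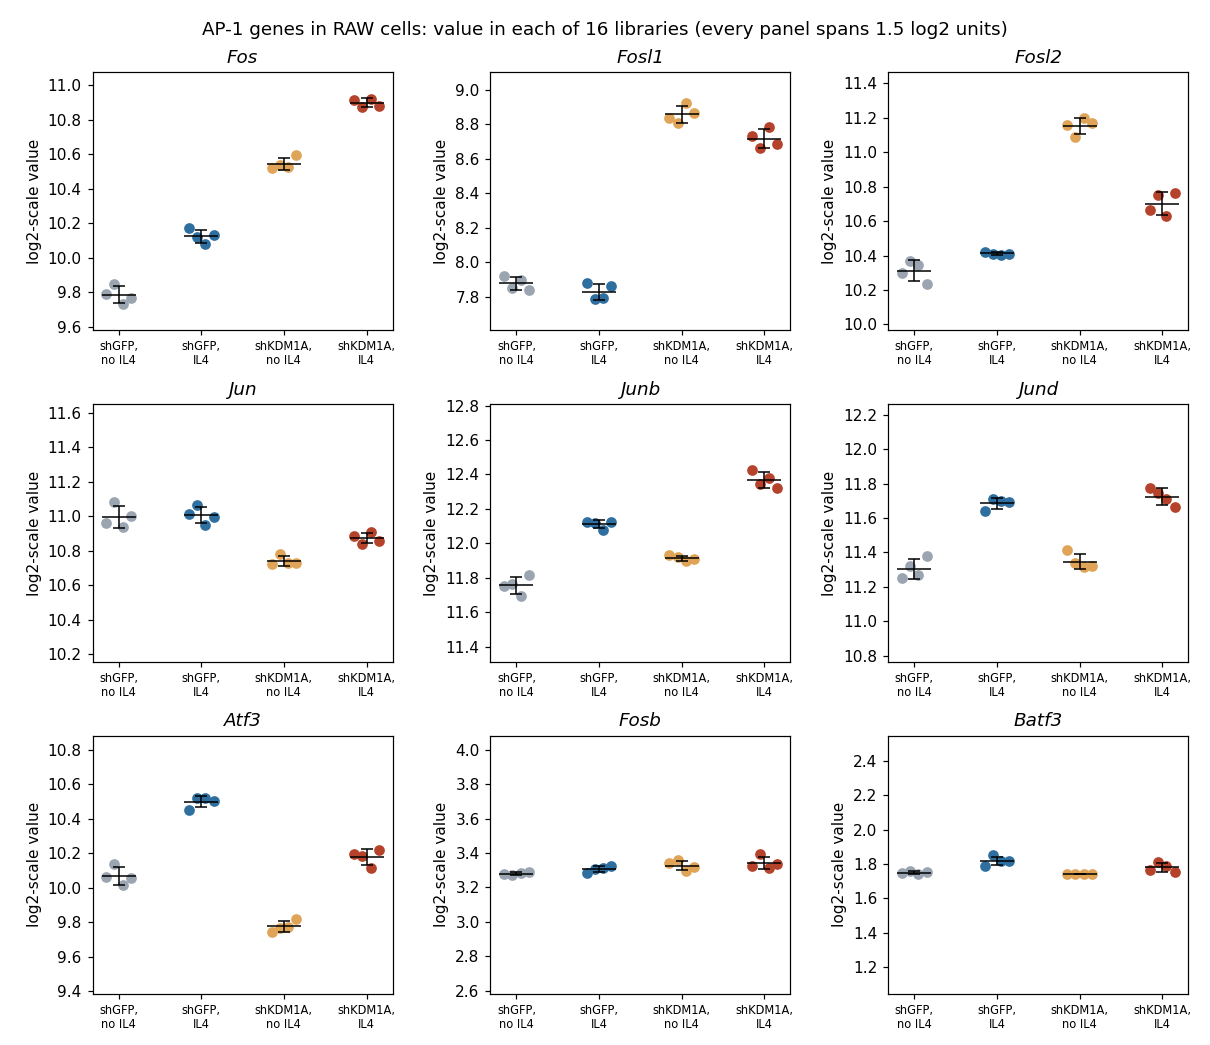
Log2-scale value of the 9 AP-1 genes above 0 (vertical axis, 1.5 log2 units in every panel) in each of the 16 libraries (points) by group (horizontal axis); black bars give the mean and SD of 4 libraries. *Fos* climbs through the 4 groups, *Fosl2* is highest in shKDM1A cells without IL4 at 11.09 to 11.20, and the values of *Fosb* and *Batf3* hardly spread.

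The JUN genes did not differ in one direction. *Jun*, the canonical partner of FOS, was lower in shKDM1A cells, *Junb* was higher and *Jund* did not pass the test. *Jun* was at 10.96, 11.08, 10.94 and 11.00 in the shGFP libraries without IL4, at 11.01, 11.06, 10.95 and 10.99 in those with IL4, at 10.72, 10.78, 10.73 and 10.73 in the shKDM1A libraries without IL4 and at 10.88, 10.84, 10.91 and 10.86 in those with IL4. The shKDM1A libraries were below all shGFP libraries under either treatment. *Jun* differed by -0.26 ± 0.03 (SE, limma, adjusted p = 5.18e-06) without IL4 and by -0.13 ± 0.03 with IL4 (limma, adjusted p = 0.00262). In the mouse annotation 7.3% of its exon bases are shared with *BC042782*, a transcript of the opposite strand.

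*Junb* encodes a JUN protein that is weaker than JUN at many promoters. *Junb* was at 11.75, 11.76, 11.69 and 11.82 in the shGFP libraries without IL4, at 12.13, 12.12, 12.08 and 12.12 in those with IL4, at 11.93, 11.92, 11.90 and 11.91 in the shKDM1A libraries without IL4 and at 12.43, 12.34, 12.38 and 12.32 in those with IL4. Within each treatment the shKDM1A libraries were above the shGFP libraries. The differences were 0.16 ± 0.03 (SE, limma, adjusted p = 0.000174) without IL4 and 0.26 ± 0.03 with IL4 (limma, adjusted p = 1.01e-06). *Jund*, the most constitutively expressed JUN gene, ranged from 11.25 to 11.38 in shGFP cells and 11.31 to 11.41 in shKDM1A cells without IL4, which overlap. Its differences were 0.04 (95% confidence interval -0.0249 to 0.110) without IL4 and 0.04 (-0.0304 to 0.105) with IL4 (limma, adjusted p = 0.326 and 0.382). Of its exon bases, 18.9% are shared with *Gm11175* on the opposite strand.

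*Atf3*, a stress-induced factor that acts as a repressor of inflammatory genes, went down in shKDM1A cells. *Atf3* was at 10.06, 10.14, 10.02 and 10.06 in the shGFP libraries without IL4, at 10.45, 10.52, 10.52 and 10.50 in those with IL4, at 9.74, 9.77, 9.78 and 9.82 in the shKDM1A libraries without IL4 and at 10.20, 10.18, 10.12 and 10.22 in those with IL4. Within each treatment the shKDM1A libraries were below all shGFP libraries. The differences were -0.29 ± 0.03 (SE, limma, adjusted p = 4.59e-07) without IL4 and -0.32 ± 0.03 with IL4 (limma, adjusted p = 1.52e-07). *Batf3*, which pairs with JUN proteins and is known from dendritic cell development, stayed between 1.74 and 1.85 in every library and passed the test in neither comparison (limma, adjusted p = 0.813 and 0.0997).

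In counts, 4 of the 9 genes tested rose and 2 fell in shKDM1A cells without IL4, where 19.7% of all genes tested rose and 18.4% fell. With IL4 the counts were also 4 and 2, against 20.9% and 19.8% of all genes. The median absolute difference of the 9 was 0.26 without IL4 and 0.26 with IL4, and that of all genes 0.06 and 0.07. The median signed difference was 0.05 and 0.04, beside medians near 0 for all genes.

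After IL4, *Atf3*, *Jund*, *Junb* and *Fos* each rose in shGFP cells and in shKDM1A cells. In shGFP cells the log2 differences of IL4 from no IL4 were 0.43 ± 0.03 (SE) for *Atf3*, 0.38 ± 0.03 for *Jund*, 0.35 ± 0.03 for *Junb* and 0.34 ± 0.03 for *Fos*. In shKDM1A cells they were 0.40 ± 0.03, 0.38 ± 0.03, 0.45 ± 0.03 and 0.35 ± 0.03, in the same order. For all 8 of these values the IL4 libraries did not overlap those without IL4, and the limma adjusted p ranged from 1.73e-09 for *Junb* in shKDM1A cells to 1.63e-07 for *Jund* in shKDM1A cells. *Jund* ranged from 11.64 to 11.71 in shGFP cells with IL4 and from 11.66 to 11.78 in shKDM1A cells with IL4, so the 2 cell lines overlapped with IL4 as well as without it.

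*Jun* did not pass the test in shGFP cells, at 0.01 (95% confidence interval -0.0573 to 0.0743), and rose by 0.13 ± 0.03 in shKDM1A cells (limma, adjusted p = 0.00399), or by 0.11 with replicates 2 and 4 of shKDM1A with IL4 alone (limma, adjusted p = 0.0583). *Fosl1* was at -0.05 (-0.116 to 0.0209) in shGFP cells and fell by 0.14 ± 0.03 in shKDM1A cells (limma, adjusted p = 0.00326), while *Ccdc85b* differed by 0.01 and 0.03. With replicates 1 and 3 of shKDM1A with IL4 alone the *Fosl1* value was -0.099 (limma, adjusted p = 0.0553). *Batf3* was called higher in shGFP cells by 0.07 ± 0.02 (limma, adjusted p = 0.00800), a small step of a weak gene, and missed the threshold in shKDM1A cells. *Fosb* passed the test in neither. In all, 6 of the 9 genes rose and 0 fell with IL4 in shGFP cells, against 13.1% and 13.7% of all genes. The 6 include *Fosl2*, whose call was lost in several alternative fits, as described below. In shKDM1A cells 5 rose and 2 fell, against 13.6% and 13.5%. The IL4 comparison within shGFP cells and the shKDM1A comparison without IL4 share the same shGFP libraries.

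**Figure D2:**
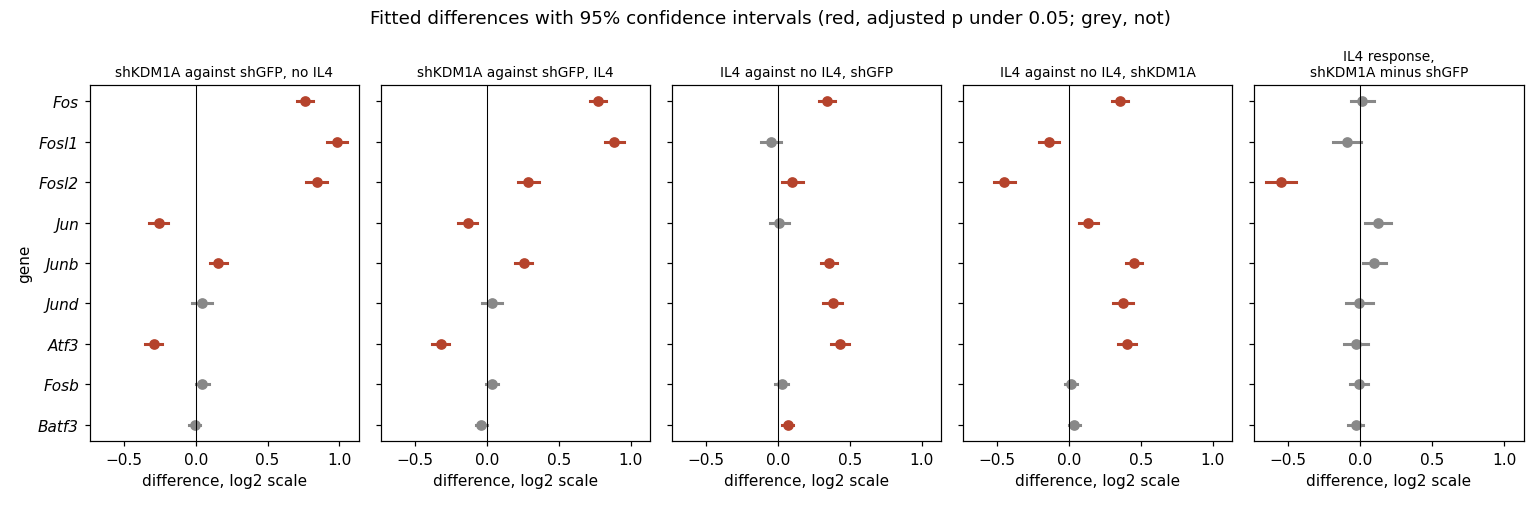
Fitted log2 difference (horizontal axis) with its 95% confidence interval for each AP-1 gene (vertical axis) in the 5 comparisons; red marks an adjusted p under 0.05 over all 12905 genes. *Fosl2* is the only gene with a called difference in IL4 response, at -0.55.

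*Fosl2* was the 1 AP-1 gene whose response to IL4 differed between the cell lines by the test of that difference over all libraries. It rose with IL4 in shGFP cells by 0.10 ± 0.03 (SE, limma, adjusted p = 0.0381) and fell by 0.45 ± 0.03 in shKDM1A cells (limma, adjusted p = 3.40e-08). The call in shGFP cells was lost when any 1 of 6 libraries was left out, with a replicate block or with no filter. The response in shKDM1A cells minus that in shGFP cells was -0.55 ± 0.05 (95% confidence interval -0.653 to -0.450, limma, adjusted p = 5.58e-06), which ranked 13 of 12905 genes by absolute size. *Fosl2* was at 10.66 and 10.63 in replicates 1 and 3 of shKDM1A with IL4 and at 10.75 and 10.76 in replicates 2 and 4. With the pairs alone the difference in response was -0.61 and -0.50 (limma, adjusted p = 3.87e-06 and 3.27e-05). All genes had 3.56% called higher and 2.57% called lower in this test, 791 genes in all, against 2282 genes with replicates 1 and 3 alone and 348 with replicates 2 and 4 alone. For *Fos* the difference in response was 0.01 (-0.0671 to 0.0940), for *Atf3* -0.03 (-0.114 to 0.0570) and for *Jund* -0.01 (-0.101 to 0.0902). *Jun* at 0.12 (0.0313 to 0.217), *Junb* at 0.10 (0.0174 to 0.177) and *Fosl1* at -0.09 (-0.191 to 0.0025) did not pass after adjustment over all genes (limma, adjusted p = 0.102, 0.136 and 0.234). With replicates 1 and 3 alone *Junb* passed, at 0.13 (limma, adjusted p = 0.0303), and with replicates 2 and 4 alone it was at 0.06 (limma, adjusted p = 0.465).

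Summed per transcript length on a linear scale, the FOS genes stood at 778 ± 20 (SD, n = 4) in shGFP cells and 1376 ± 27 in shKDM1A cells without IL4, and at 901 ± 19 and 1443 ± 13 with IL4. The JUN genes summed to 3406 ± 113 and 3545 ± 49 without IL4, and to 4200 ± 57 and 4641 ± 135 with IL4. The FOS share of the FOS and JUN sums was 18.6% ± 0.64 in shGFP cells and 28.0% ± 0.64 in shKDM1A cells without IL4. With IL4 it was 17.7% ± 0.30 and 23.7% ± 0.45. The 4 libraries of each shKDM1A group were above every shGFP library in this share. *Fosl2* made up 28.3% ± 0.57 of the FOS sum in shKDM1A cells without IL4 and 19.7% ± 1.05 with IL4, whereas *Fos* went from 51.7% ± 0.97 to 62.9% ± 0.59. *Junb* supplied over 50% of the JUN sum in each group, from 55.3% to 62.0% on average. These sums are back-transformed from moderated values and do not give amounts of transcript. They include the reads that *Fosl1* shares with *Ccdc85b*.

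**Figure D3:**
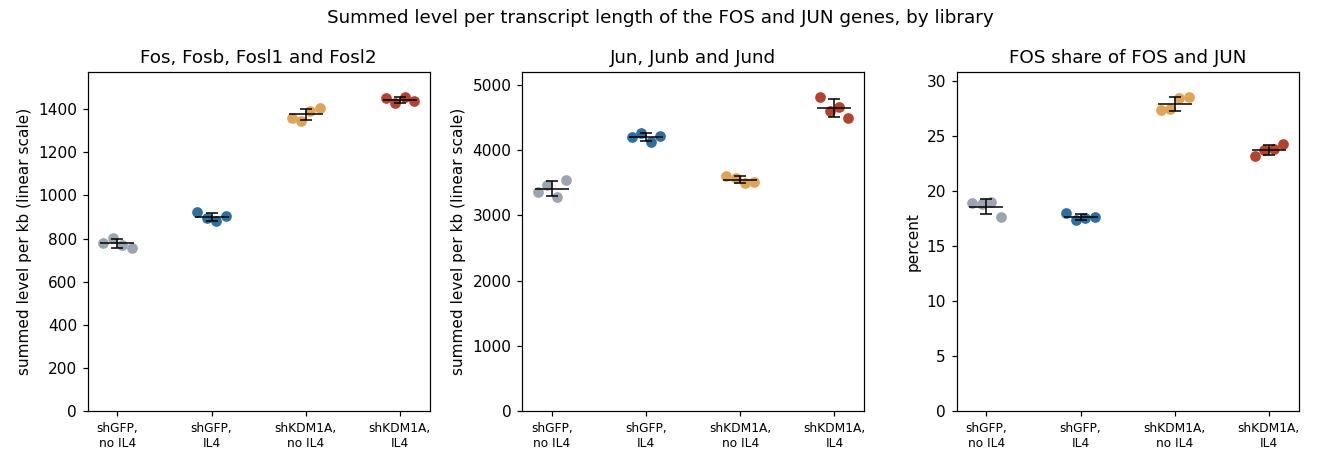
Summed level per kb of transcript of the FOS genes (left) and the JUN genes (middle), on a linear scale, and the FOS share of their total in percent (right), for each library (points) with the mean and SD of 4 libraries. The FOS share is 27.38 to 28.56% in shKDM1A cells without IL4 and 17.65 to 19.02% in shGFP cells without IL4.

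Other genes of the pathway are set beside the shares of all genes tested, which were 19.7% higher and 18.4% lower without IL4 and 20.9% higher and 19.8% lower with IL4. Of 28 tested genes for dimer partners and other bZIP factors, 8 rose and 5 fell in shKDM1A cells without IL4 and 8 rose and 6 fell with IL4, with medians of 0.04 and 0.01. *Jdp2*, whose product pairs with JUN and represses AP-1 sites, rose by 0.49 ± 0.03 without IL4 (limma, adjusted p = 1.74e-09). With IL4 it rose by 0.26 ± 0.03. *Atf5* rose by 0.52 ± 0.04 without IL4 and 0.33 ± 0.04 with IL4, *Cebpa*, a myeloid differentiation factor, by 0.43 ± 0.03 and 0.53 ± 0.03, and *Cebpb* by 0.27 ± 0.05 with IL4.

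Of 35 tested kinases and phosphatases upstream of AP-1, 7 rose and 8 fell without IL4 and 10 rose and 10 fell with IL4, with medians of -0.02 and -0.01. *Map2k1*, which encodes the ERK kinase MEK1, rose by 0.63 ± 0.03 and 0.67 ± 0.03. *Map2k5*, the kinase of ERK5, rose by 0.30 ± 0.03 both without and with IL4. *Dusp4*, a nuclear phosphatase of MAP kinases, rose by 0.39 ± 0.03 without IL4 and 0.23 ± 0.03 with IL4. *Dusp16*, a phosphatase of JNK, fell by 0.38 ± 0.06 and fell by 0.44 ± 0.06.

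Of 16 tested transcription factors that act on *Fos* and *Jun* promoters or with BATF and JUN, 7 rose and 5 fell without IL4 and 5 rose and 6 fell with IL4, with medians of -0.01 and -0.02. *Irf8*, a partner of PU.1, rose by 0.27 ± 0.03 and 0.33 ± 0.03. *Irf4*, which joins BATF and JUN on composite sites, fell by 0.24 ± 0.04 without IL4 and fell by 0.31 ± 0.04 with IL4. *Nfatc1* rose by 0.43 ± 0.03 without IL4 and 0.255 ± 0.03 with IL4. *Elk1*, which binds the *Fos* promoter with SRF, rose by 0.29 ± 0.04 without IL4 and 0.11 ± 0.04 with IL4. *Mef2c* fell by 0.19 ± 0.05 without IL4 and fell by 0.27 ± 0.05 with IL4.

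The other immediate early genes, set beside *Fos*, rose more often than they fell. Of 25 tested, 11 rose and 4 fell in shKDM1A cells without IL4 and 15 rose and 4 fell with IL4, with medians of 0.11 and 0.17. *Gadd45b* rose by 0.51 ± 0.04 without IL4 and 0.43 ± 0.04 with IL4. In the same order *Klf4* rose by 0.40 ± 0.03 and 0.32 ± 0.03, and *Btg1* by 0.12 ± 0.03 and 0.40 ± 0.03. *Zfp36l1*, whose product marks AU-rich mRNAs for decay, fell by 1.295 ± 0.05 and fell by 1.665 ± 0.05, the largest change of any gene on this list in both comparisons.

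Of 27 tested genes known as AP-1 targets, 13 rose and 4 fell without IL4 and 12 rose and 6 fell with IL4, with medians of 0.05 and 0.05. *Mt2*, a metallothionein, rose by 1.11 ± 0.04 and 0.98 ± 0.04, and *Hmox1*, the inducible heme oxygenase, by 0.94 ± 0.02 and 0.90 ± 0.02. *Spp1*, which encodes osteopontin, rose by 0.56 ± 0.02 without IL4 and 0.74 ± 0.02 with IL4. For each of the values given in these 5 lists the limma adjusted p was under 0.05. The median over all genes was close to 0 in both comparisons. By the test of the difference in IL4 response, 1 was higher and 2 were lower among bZIP genes, 3 and 1 among kinases and phosphatases, 1 and 2 among transcription factors, 3 and 1 among immediate early genes and 4 and 2 among AP-1 targets, against 3.56% and 2.57% of all genes.

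The genes most like each AP-1 gene were taken by Pearson r over the 16 libraries, which fall into the same 4 groups for every gene. *Fos* was most like *Tmem26* (Pearson r = 0.992) and *Tmeff1* (r = 0.990), *Fosl1* like *Ifi44l* and *Uvrag* (r = 0.994 each) and *Fosl2* like *Sik2* (r = 0.975) and *Ehd4* (r = 0.968). *Junb* was most like *Lmna* and *Pitpna* (r = 0.994 each), *Jund* like *Irf5* (r = 0.985) and *Hfe* (r = 0.982), *Jun* like *Ap1m1* (r = 0.951) and *Tmem51* (r = 0.943), and *Atf3* like *Slc7a8* (r = 0.992) and *Dab2* (r = 0.990). *Sik2* averaged 8.21, 8.30, 8.69 and 8.41 in shGFP cells without and with IL4 and shKDM1A cells without and with IL4, the same order as *Fosl2*. For the weak genes the best matches were lower, at r = 0.921 for *Batf3* with *Edil3* and with *Gtf2i*, and r = 0.854 and 0.852 for *Fosb* with *4930520O04Rik* and *Kdm4b*.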

How the data were processed

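RNA was sequenced from RAW cells with shGFP or shKDM1A, without or with IL4, in 4 libraries per group, which were grouped by their labels. The authors aligned reads with HISAT2 to mm9 and counted tags on the exons of RefSeq genes with HOMER on both strands, with the transcripts of a gene merged, and tested groups in DESeq2. The deposited values per library are other than counts: they are on a log2 scale and resemble the moderated values of DESeq2, a transformation the file header does not name, and no count model was fitted. Columns with the authors' own comparisons, and the BMDM table, which held only 12 such columns for 4 comparisons, were not used.

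A limma (3.58.1, in R 4.3.3) model was fitted to all 16 libraries (4 group means, no block, Benjamini-Hochberg adjustment over all genes, adjusted p under 0.05) over genes that reached 1 in 4 or more libraries. The step was tested on simulated data with noise drawn independently for each gene and library. Deviations shared between libraries were not simulated. Intervals are 95% confidence intervals for single genes and are not adjusted. The study describes its replicates as biological, while the labels do not name separate cultures, so p-values measure the spread between these libraries, which may be technical. Replicate numbers did not pair the libraries: 3 of 24 same-numbered pairs correlated above 0.1, and some differently numbered pairs correlated more strongly, up to 0.357. Levels were compared per length, as the value less log2 of the transcript length in kb. Genes named were the 10 AP-1 genes, *Kdm1a*, the 3 largest called changes of each list in each shKDM1A comparison and the 2 most similar genes of each AP-1 gene by Pearson r; *Ccdc85b*, *BC042782* and *Gm11175* were named because their exons overlap. A result for 1 gene that this rule names is not reported here. *Csf1r* and *Mertk* were named as macrophage markers. Exon overlaps come from GENCODE vM1 on NCBIM37, the assembly of mm9. Members and lists were chosen with earlier results of these data known. Alternatives were the filter, the groups fitted, a replicate block, leaving out each library, a trended prior variance, centring on the median, quantile normalization, a log2 difference over 0.5 and no length correction, and, chosen after seeing the data, fits with only replicates 1 and 3 or only replicates 2 and 4 of shKDM1A with IL4.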

Additional observations from a re-analysis of the deposited data

Results flagged for a closer look

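The difference in the IL4 response of *Fosl2* between shKDM1A and shGFP cells, -0.551 on the log2 scale, passed the test of that difference. In 4 shKDM1A libraries without IL4, the highest *Jun* value, 10.783, stood apart from the other 3, with a gap of 0.0558 that is 0.917 of the range. In 4 shGFP libraries with IL4, the lowest *Junb* value, 12.075, stood apart, with a gap of 0.0457 that is 0.888 of the range. Both gaps are small beside the differences between groups. The gaps were examined in 40 groups of 4 libraries, and chance marks about 1 in 20.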

How the results depend on the processing

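Requiring a log2 difference over 0.5 as well left 3 AP-1 genes called for shKDM1A without IL4 (*Fos*, *Fosl1* and *Fosl2*), 2 with IL4, and 0 for IL4 in shGFP or in shKDM1A cells, by construction. Over all genes this limit left 337, 319, 174 and 141 calls and, for the difference in IL4 response, 17. Without a filter on low values 431 genes were called for that difference, against 791 with it.

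With the replicate block *Fosl2* in the IL4 comparison of shGFP cells, at 0.10, lost its call (limma, adjusted p = 0.0654), and no other AP-1 gene changed its call. It also lost it with no filter (limma, adjusted p = 0.102) and without 6 of the libraries in turn (shGFP control 1 and 4, shGFP IL4 1 to 4), where its adjusted p ranged from 0.0661 to 0.130 and its value over all libraries left out from 0.07 to 0.12. The cause was not tested. With a trended prior variance calls were gained by *Fosb* for shKDM1A without IL4 (limma, adjusted p = 0.0494) and by *Batf3* for shKDM1A with IL4 and for IL4 in shKDM1A cells (0.0132 and 0.0216). *Fosb* without IL4 also gained one without shKDM1A control replicate 3 (0.0476) and *Batf3* with IL4 without shKDM1A IL4 replicate 2 (0.0454).

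Signs turned only for values near 0 that were not called. *Jund* went to -0.0041 for shKDM1A with IL4 under quantile normalization and to 0.0044 for the difference in IL4 response under median centring. Leaving out each library in turn gave -0.0114 to 0.0378 for *Jun* with IL4 in shGFP cells, -0.0021 to 0.0249 for *Fosb* with IL4 in shKDM1A cells, and, for the difference in IL4 response, -0.0080 to 0.0307 for *Fos*, -0.027 to 5.6e-05 for *Fosb* and -0.0295 to 0.0167 for *Jund*.

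With only replicates 1 and 3 of shKDM1A with IL4, 2 AP-1 genes were called for the difference in IL4 response (*Fosl2* and *Junb*), and signs turned for *Fosb* with IL4 in shKDM1A cells (-0.0074) and for *Jund* in the difference (0.0149). With only replicates 2 and 4, signs turned in the difference for *Fos* (-0.0082) and *Fosb* (0.0123). *Fosl1* lost its call for IL4 in shKDM1A cells with the former pair and *Jun* with the latter. The cause was not tested. The difference in IL4 response of *Fosl2* kept its direction and its call in each fit run for it, between -0.61 and -0.50 over all of them and between -0.5726 and -0.5252 with 1 library left out. A fit of only the groups compared was not run for it, since it needs all 4. Without the length correction *Fos* was the sixth and *Fosl2* the fourth of the AP-1 genes in shGFP cells without IL4. *Fosb* and *Batf3* are weak and *Batf* is listed at 0, so differences in these genes may be understated by the moderation of the values.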
